A study of Mus musculus with 73 samples.

Results

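Chromosome conformation capture carbon copy (5C) maps of 2 XiteC-del libraries were compared with 2 wild-type (WT) libraries over all primer pairs of a pool on the mouse X-inactivation centre. These are 4 of the 10 5C libraries analysed here, in a series of 73 samples. Members were taken by their labelled genotype, not by any measured value. All 4 came from E14Tg2a, a feeder-independent male (XY) mouse embryonic stem cell line of strain 129/Ola kept in serum and leukemia inhibitory factor. The WT cells carried no edit, and the XiteC-del cells carried a targeted deletion made with CRISPR plasmids or TALENs. XiteC-inv, the matching inversion, gave 2 more libraries that are used below as a contrast. XiteE-del and XiteE-inv, edits of another piece of Xite, gave 2 libraries each that shared the estimate of spread. The labels do not spell out the letters C and E. The labels give the 2 XiteC-del libraries different codes and both WT libraries the same cell code, but do not say which are separate clones or cultures. The p-values below therefore measure the spread between these libraries, which may be technical.

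The X-inactivation centre holds Xist, the noncoding RNA that coats and silences an X chromosome in female cells, and Tsix, its antisense partner, which represses Xist. Xite is an intergenic element that acts as an enhancer of Tsix. A topologically associating domain (TAD) is a stretch of chromosome whose parts contact each other more often than they contact the next stretch. In this region the promoters of Tsix and Xist lie in 2 adjacent TADs, and Xite lies in the Tsix TAD close to the boundary. CTCF, a DNA-binding protein that stops the loop-forming cohesin complex in a way that depends on the direction of its site, is known to mark many such boundaries. In RefSeq's GRCm38.p6 order, the genes run from Nap1l2, Cdx4, Chic1 and Tsx on the Tsix side to Tsix, Xist, Jpx, Ftx, Zcchc13 and Rlim on the Xist side. Positions below are on mm9, and gene annotation of that build was not used here. "Before" means lower and "after" higher X coordinates.

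In 5C, pairs of primers are ligated only when the restriction fragments they match were joined in the fixed nucleus, and each pair is counted. The pool held 511 forward and 528 reverse primers on X (chrX:98831149-103425147) and 26 of each on chromosome 5 as a control region. Library totals were 16811959 and 16267499 counts in WT, and 21191816 and 17816295 in XiteC-del. Values are given as counts per 1000000 counts of the library (CPM). WT replicate 2 carried the code B101 in its label, shared only with XiteE-inv replicate 2, while the other 8 libraries carried B100. The labels do not say what this code, called the library code below, stands for. The B101 libraries stood apart. In WT replicate 2, 55.2% of the counts within X joined fragments under 100 kb apart, against 43.6% in WT replicate 1 and 45.9% and 43.8% in XiteC-del. Counts between X and chromosome 5 made up 0.282% of WT replicate 2, 1.71% of WT replicate 1, and 1.23% and 1.5% of XiteC-del. Across 16952 well-counted primer pairs, the correlation of log values was 0.554 between the 2 WT libraries, 0.891 between the 2 XiteC-del libraries and 0.922 between the 2 B101 libraries. Each test is therefore given also with the library code as a covariate. In that fit the code's term rests on the 2 B101 libraries, so that XiteC-del is set mainly against WT replicate 1.

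The deletion was visible as a loss of contacts from 2 neighbouring restriction fragments. The forward fragment at chrX:100636563-100639613 gave 2177 and 2498 CPM in the 2 WT libraries, and 75.6 and 84.4 CPM in XiteC-del. It kept 3.88% of the lower WT value. It was the only one of 1067 fragments checked that fell below 5% over all its counts. The reverse fragment just before it, chrX:100633846-100636562, had 3773 and 2792 CPM in WT and still 1639 and 1793 CPM in XiteC-del. Its counts with partners up to 100 kb away, however, were 1231 and 1673 CPM in WT and 17.5 and 23.1 CPM in XiteC-del, or 1.87% of the lower WT value. For the forward fragment the same near counts were 1255 and 1530 CPM in WT and 7.1 and 6.2 CPM in XiteC-del, or 0.568%. By near counts these 2 fragments were lost and no other of 1018 was, the next lowest in the pool keeping 76.4%. The 2 fragments span chrX:100633846-100639613, or 5768 bp, which is called the lost interval below. The near-count rule was added after the total counts of the reverse fragment had been seen. In XiteC-inv both fragments kept near counts of 887 to 1312 CPM.

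**Figure D1:**
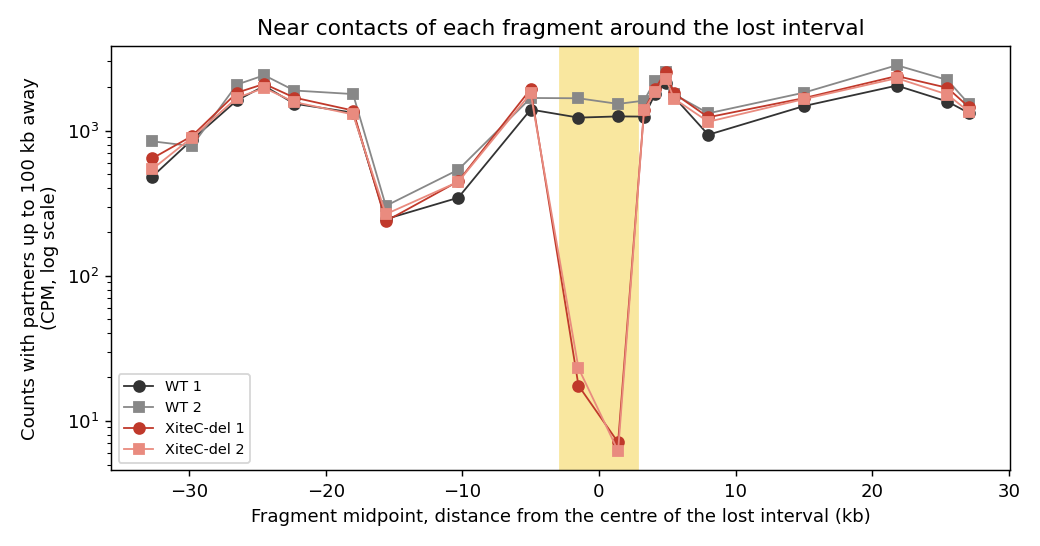
Counts of each restriction fragment with partners up to 100 kb away (CPM, log scale) against its distance from the centre of the lost interval, one line per library. The 2 fragments in the shaded interval sit between 1231 and 1673 CPM in WT and between 6.2 and 23.1 CPM in XiteC-del, while the fragments on either side keep their level.

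What the reverse fragment kept was distant, and most of it came from 2 pairs. With the forward fragment at chrX:101155835-101158025, which lies 522 kb after it, it gave 946 and 111 CPM in WT and 970 and 984 CPM in XiteC-del. With the forward fragment at chrX:101078199-101083750, 446 kb after it, it gave 591 and 31.3 CPM in WT and 450 and 543 CPM in XiteC-del. In both pairs WT replicate 2 was far below WT replicate 1 and both XiteC-del libraries. In XiteE-inv replicate 2, the other B101 library, the 2 pairs gave 136 and 44.8 CPM. The B100 libraries other than XiteC-del gave 933 to 1307 CPM in the first pair and 539 to 716 CPM in the second. These counts persisted in libraries that had lost the fragment's near contacts, and whether they are ligation products was not tested. For this reason the results on the lost interval were also computed without both lost fragments.

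Apart from these 2 pairs, the lost fragments had in WT high counts with their neighbours and with fragments before them. The lost forward fragment gave 300 and 312 CPM with the reverse fragment 3.5 kb after it and 248 and 312 CPM with the one directly after it. At 176 kb before, with chrX:100455324-100468776, it still gave 51.6 and 56.7 CPM. The lost reverse fragment gave 75.4 and 85.0 CPM with chrX:100565598-100567847, 68.5 kb before it, and 61.0 and 82.1 CPM with chrX:100585258-100586485, 49.3 kb before it. In XiteC-del these 5 pairs gave at most 2.22 CPM.

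Over all primer pairs, 61 of 105453 tested passed an adjusted p under 0.05 in edgeR's quasi-likelihood test over the 10 libraries, or 0.0578%. All 61 were lower in XiteC-del and all 61 held a lost fragment. They were 60 of the 212 tested pairs that join a lost fragment to one up to 500 kb away, plus 1 farther away. Their fitted log2 fold changes ran from -12.64 to -4.25 with a median of -8.53, values set by the few counts left. The pair of the 2 lost fragments themselves went from 2916 and 3043 counts in WT to 10 and 6 counts in XiteC-del (edgeR adjusted p = 1.37e-07). The lost fragments were picked by their low counts in these same libraries, so the 61 calls and this p-value were largely set by that choice. Among the pairs with no lost fragment, none passed.

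Pairs that join the edges of the lost interval were higher in XiteC-del. The forward fragment directly before the lost interval, chrX:100629520-100633845, gave 91.7 and 111 CPM with the reverse fragment directly after it, chrX:100639614-100640516, in WT. In XiteC-del that pair gave 381 and 329 CPM, and in XiteC-inv 99.1 and 125 CPM. With the next reverse fragment, chrX:100641124-100642113, the same forward fragment gave 114 and 144 CPM in WT, 456 and 443 CPM in XiteC-del, and 147 and 183 CPM in XiteC-inv. Both XiteC-del libraries thus lay above both WT and both XiteC-inv libraries in these pairs. The log2 fold changes over WT were 1.81 (SE 0.33) and 1.80 (SE 0.34), and neither passed (edgeR adjusted p = 0.0707 and 0.104). With the library code as a covariate they were 1.92 (SE 0.24) and 2.02 (SE 0.23), and both passed (edgeR adjusted p = 0.00116 and 0.000333). In that fit 72 pairs passed, or 0.0683%. Of these, 62 held a lost fragment and 10 did not, all 10 of the latter higher in XiteC-del. The other 8 of these 10 were distant, thin pairs in which WT replicate 1 had 0 to 9 counts, and in all but one of the 8 WT replicate 2 had 78 to 250 counts.

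The naming rule also gave 3 rises and 3 falls that were not called. The rise with the smallest p, between chrX:101493279-101499444 and chrX:101030681-101035460, had 0 and 0 counts in WT against 245 and 183 in XiteC-del (edgeR adjusted p = 0.0501). It passed in the fit with the library code, and its XiteC-inv values were 18.0 and 14.6 CPM against 11.6 and 10.3 in XiteC-del. The other 5 named pairs gave at most 9.82 CPM in any WT or XiteC-del library.

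Counts were next summed over pairs of 30 kb bins, of which 11769 were tested. The bin that holds the lost interval, chrX:100620001-100650000, is called the lost bin. It holds 10 fragments, 8 of which were kept. In edgeR's test over the 10 libraries no bin pair passed (0.0%), 193 had an unadjusted p under 0.05, and DESeq2 called none as well, with 267 under 0.05. With the library code as a covariate 13 pairs passed, or 0.11%. Of these, 6 joined the lost bin to bins before it and were lower in XiteC-del. Another 5 joined bins before the lost bin to bins after it and were higher. The remaining 2 lay elsewhere. The percentages of all bin pairs with both XiteC-del libraries above both WT libraries, 20.6%, and below both, 8.8%, are the background for the counts that follow.

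The lost bin had fewer contacts with the bins before it. With the 10 bins before it, up to 300 kb away, it gave 7523 and 9042 CPM in WT and 5211 and 4988 CPM in XiteC-del, a ratio of means of 0.616. In 9 of these 10 bin pairs both XiteC-del libraries lay below both WT libraries, and in none above. With the 10 bins after it, the sums were 2594 and 3068 CPM in WT and 2617 and 2621 CPM in XiteC-del, so the groups overlapped. There 3 of 10 bin pairs were below and 1 above. The median log2 fold change, with the library code as a covariate, was -0.73 before and 0.02 after, beside -0.05 over all bin pairs.

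The 6 called falls lay 60 to 450 kb before the lost bin. With chrX:100440001-100470000, 180 kb before it, the lost bin gave 827 and 1099 CPM in WT and 393 and 320 CPM in XiteC-del. The log2 fold change was -1.43 (SE 0.23, edgeR adjusted p = 0.531), and -1.17 (SE 0.13) with the library code, which passed (edgeR adjusted p = 0.000237). With chrX:100470001-100500000 it gave 719 and 923 CPM in WT and 348 and 302 CPM in XiteC-del, with a log2 fold change of -1.17 (SE 0.13, edgeR adjusted p = 0.00028) with the library code. With chrX:100560001-100590000, 60 kb before it, the values were 1296 and 1701 CPM against 703 and 628 CPM. In these 3 pairs WT and XiteC-del did not overlap, and the WT values were about 2 to 3 times the XiteC-del values. With chrX:100170001-100200000, 450 kb before it, the lost bin gave 303 and 445 CPM in WT and 188 and 145 CPM in XiteC-del, a log2 fold change of -0.98 (SE 0.18, edgeR adjusted p = 0.0486) with the library code. With the bin directly before it, the lost bin gave 2176 and 2533 CPM in WT and 2177 and 2139 CPM in XiteC-del, where no fall was seen beyond the spread.

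In 2 of these 6 pairs a fall also passed in the fragments that were kept. Without the 2 lost fragments, the lost bin gave 642 and 858 CPM in WT and 391 and 318 CPM in XiteC-del with the bin 180 kb before it. With the bin 150 kb before it, it gave 570 and 700 CPM in WT and 346 and 297 CPM in XiteC-del. With the library code as a covariate both of these pairs had a log2 fold change of -0.82 and both passed (edgeR adjusted p = 0.0325 for each). The other 4 did not: the log2 fold changes at 60, 210, 240 and 450 kb before were -0.55, -0.59, -0.51 and -0.76 (edgeR adjusted p = 0.137, 0.564, 0.422 and 0.272). In that fit 8 pairs passed, or 0.068%, of which 6 were higher. The median over the 10 bins before was -0.49, against -0.73 with the lost fragments. Over the 10 bins after, the median was 0.20, against 0.02 with them. Within the lost bin itself, the kept fragments gave 2133 and 2715 CPM with each other in WT and 3426 and 3136 CPM in XiteC-del, which did not overlap. The log2 fold change was 0.69 (SE 0.09, edgeR adjusted p = 0.00505) with the library code. Without it the value was 0.44 (SE 0.21), and no bin pair passed.

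**Figure D2:**
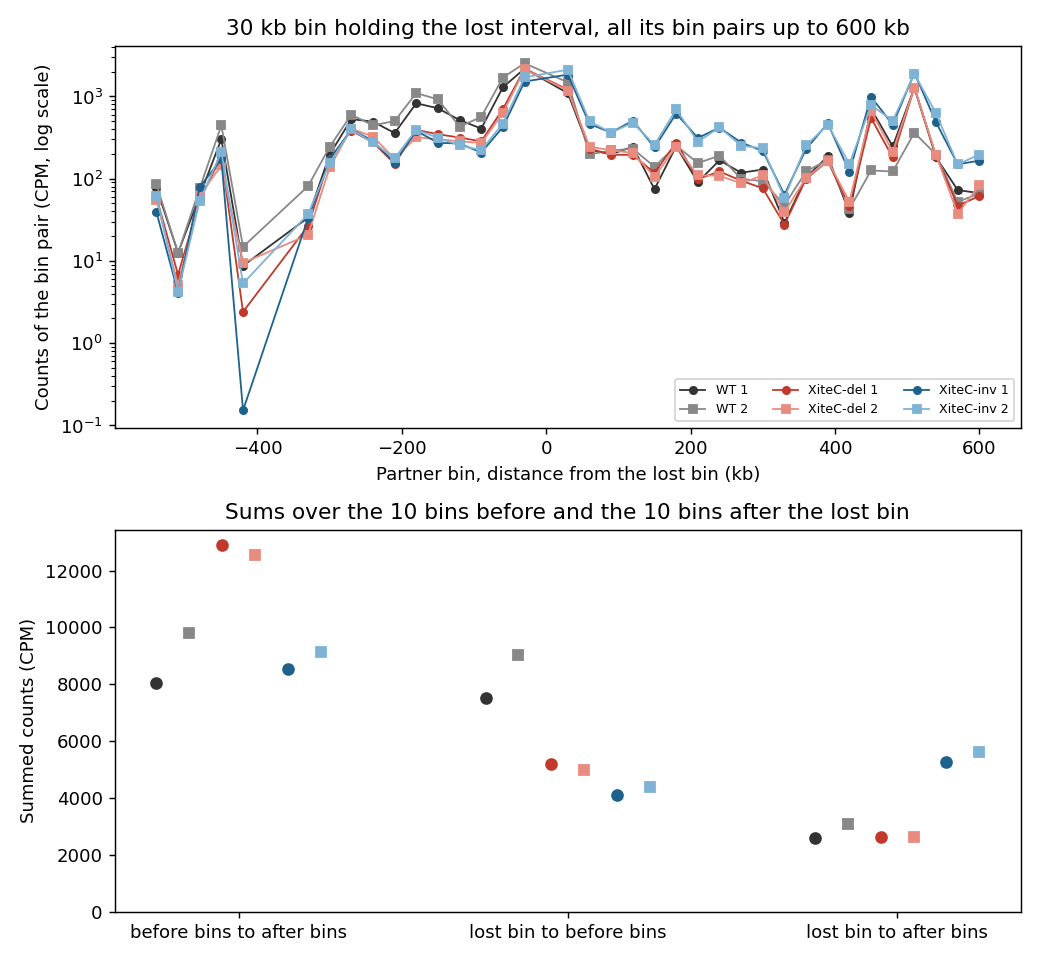
Top, counts of the lost bin with each 30 kb bin up to 600 kb away (CPM, log scale), one line per library. Bottom, sums over the 10 bins on each side (CPM), one point per library: XiteC-del is above WT for before-to-after pairs, below WT for the lost bin with bins before it, and within the WT range for the lost bin with bins after it, where XiteC-inv is about 2 times as high.

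Contacts from one side of the lost bin to the other were higher in XiteC-del. Over the 100 pairs of the 10 bins before with the 10 bins after, the sums were 8054 and 9795 CPM in WT and 12916 and 12537 CPM in XiteC-del, a ratio of means of 1.43. Both XiteC-del libraries lay above both WT libraries in 62 of the 100 pairs and below both in 3. The median log2 fold change was 0.40 in the test without the covariate and 0.53 with it. Within the 10 bins before, the sums of 40672 and 38344 CPM in XiteC-del overlapped the WT values of 39458 and 48971 CPM. Within the 10 bins after, XiteC-del gave 41406 and 38809 CPM against 37417 and 48844 CPM in WT, which overlapped as well. The medians there were 0.02 and 0.11 with the library code.

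The ratio was highest for the before bins nearest to the lost bin and fell with distance. The bin 30 kb before gave 1417 and 1958 CPM with the 10 bins after in WT, and 3284 and 3043 CPM in XiteC-del, a ratio of 1.88. The bin 60 kb before gave 1200 and 1301 CPM in WT and 2136 and 2040 CPM in XiteC-del, a ratio of 1.67. The ratio was 1.36 at 150 kb, 1.19 at 210 kb and 1.04 at 300 kb before, and at 210, 270 and 300 kb the libraries overlapped. For the bins after, the ratio was 1.56 for the bin 30 kb after, 1.48 for the bin 180 kb after and 1.29 for the bin 300 kb after, with no overlap in these 3 bins.

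The 3 bin pairs with the smallest p among the rises, named by rule and not called without the covariate, all joined these bins. The bin directly before and the bin directly after the lost bin, chrX:100590001-100620000 and chrX:100650001-100680000, gave 544 and 742 CPM in WT and 1475 and 1406 CPM in XiteC-del, and 622 and 803 CPM in XiteC-inv. The log2 fold change over WT was 1.16 (SE 0.20, edgeR adjusted p = 0.531), and 1.32 (SE 0.14, edgeR adjusted p = 0.000237) with the library code. With chrX:100560001-100590000 the bin directly after gave 380 and 456 CPM in WT and 794 and 755 CPM in XiteC-del, a log2 fold change of 1.00 (SE 0.16, edgeR adjusted p = 0.0114) with the library code. In both pairs XiteC-del was about 2 times WT. The naming rule required both XiteC-del libraries above both WT libraries, so the lack of overlap was fixed by it. The third, the bin directly before with chrX:100710001-100740000, gave 123 and 153 CPM in WT and 284 and 242 CPM in XiteC-del and did not pass in either fit.

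In a fit without the library code, scaling each distance band to the same total gave 5 of 11769 pairs called, or 0.0425%. They were the pair of bins on both sides of the lost bin, higher, and 4 pairs of the lost bin with bins 60, 150, 180 and 210 kb before it, lower. Of the 2 pairs called elsewhere with the library code, one joined chrX:103080001-103110000 and chrX:103410001-103440000, with 0.833 and 25.2 CPM in WT and 22.9 and 17.4 CPM in XiteC-del. The other joined chrX:99030001-99060000 and chrX:102420001-102450000, with 920 and 5.10 CPM in WT and 74.0 and 159 CPM in XiteC-del. In both pairs the XiteC-del values lay between those of the 2 WT libraries. The 3 falls named by rule were 750 to 1140 kb apart and gave at most 95.3 CPM in WT. None of them passed in either fit.

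**Figure D3:**
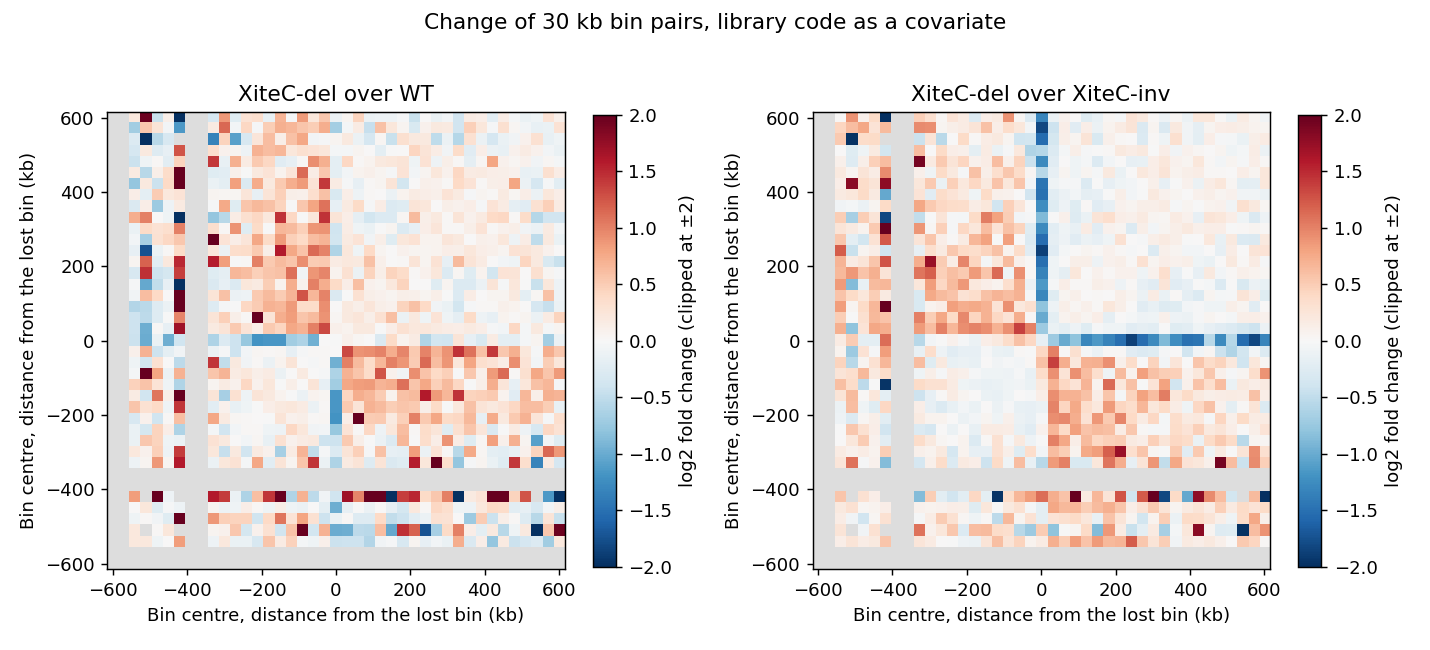
Log2 fold change of each pair of 30 kb bins up to 600 kb from the lost bin, with the library code as a covariate, for XiteC-del over WT (left) and over XiteC-inv (right). Red is higher in XiteC-del and grey marks bins with no tested pair: a red block joins bins before to bins after the lost bin in both panels, and the blue stripe of the lost bin points before it against WT and after it against XiteC-inv.

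Single fragments placed the change more finely. For each fragment, counts with partners 10 to 300 kb away were summed separately for partners before and after it, without the lost fragments, a measure added after the bin pairs had been seen. Of 2029 such side sums none passed in edgeR's test over the 10 libraries, with 35 at an unadjusted p under 0.05. With the library code as a covariate 32 passed, or 1.58%, 25 higher and 7 lower. Of the 25 called within 300 kb of the lost interval, 24 were higher and faced the interval: fragments before it with partners after them, or fragments after it with partners before them. The other called there was lower. Among the 24, the XiteC-del sums overlapped those of WT for the fragments 30.1, 117.7, 172.5 and 256.7 kb after the centre of the interval. In the 7 called farther away, all XiteC-del sums but one lay within the range of the 2 WT libraries.

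The fragment directly before the lost interval changed in both directions. Its partners before it gave 1282 and 1533 CPM in WT and 900 and 878 CPM in XiteC-del, a log2 fold change of -0.49 (SE 0.11, edgeR adjusted p = 0.012). Its partners after it gave 274 and 352 CPM in WT and 533 and 474 CPM in XiteC-del, a log2 fold change of 0.82 (SE 0.14, edgeR adjusted p = 0.000789). Neither sum overlapped between the groups. In XiteC-inv the same fragment gave 648 and 744 CPM before and 627 and 707 CPM after, and so lay on the same side of WT in both directions.

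Farther before the interval, sums toward it rose. The fragment at chrX:100609231-100611183, 26.5 kb before the centre of the interval, gave 186 and 285 CPM with partners after it in WT and 452 and 429 CPM in XiteC-del, a log2 fold change of 1.14 (SE 0.16, edgeR adjusted p = 6.29e-05). With partners before it, it gave 468 and 603 CPM in WT and 504 and 460 CPM in XiteC-del, which overlapped. Among 30 fragments up to 100 kb before the interval, both XiteC-del libraries lay above both WT libraries in 18 of the sums toward it, against 7.79% of all side sums. In the sums away from it 1 of 30 was above and 7 were below, against 13.5% below over all.

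After the interval the nearest fragments did not follow this pattern. The fragments centred 3.3 to 5.5 kb after the interval's centre had log2 fold changes of -0.24 to -0.11 toward it, with the library code, and none passed. The first to pass lay 8.0 kb after the centre. The fragment at chrX:100656353-100660727 gave 593 and 680 CPM with partners before it in WT and 940 and 941 CPM in XiteC-del, a log2 fold change of 0.63 (SE 0.11, edgeR adjusted p = 0.0017). Both XiteC-del libraries lay above both WT libraries there, while XiteC-inv gave 575 and 611 CPM. Among 29 fragments up to 100 kb after, 12 sums toward the interval passed and none of the 29 away from it did. Both XiteC-del libraries lay above both WT libraries in 17 of the 29 sums toward it and below both in 4. Over all side sums these shares were 7.79% and 13.5%.

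**Figure D4:**
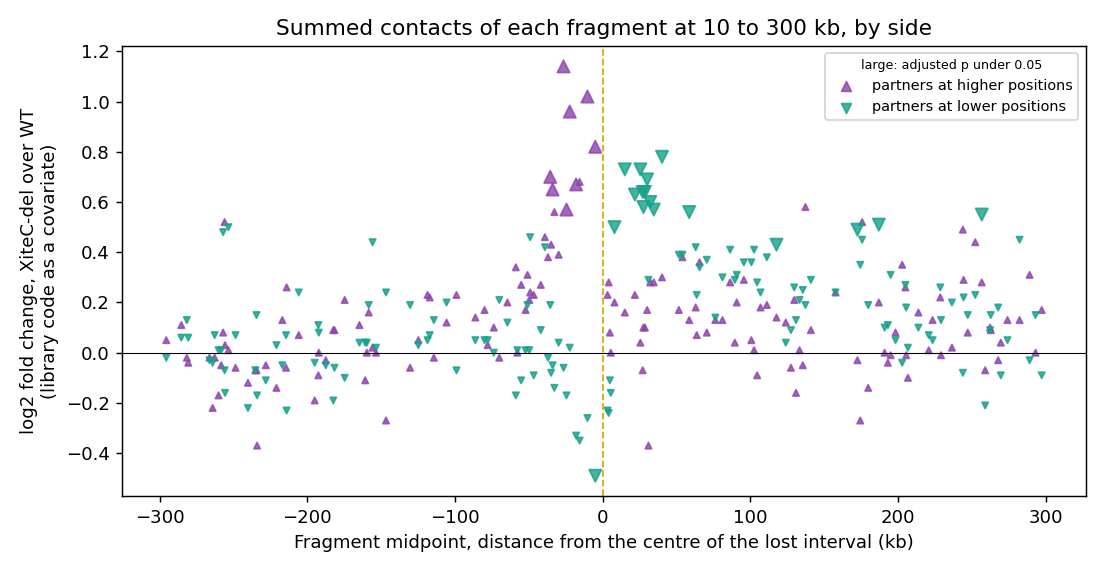
Log2 fold change, XiteC-del over WT with the library code as a covariate, of each fragment's summed contacts at 10 to 300 kb, split by partners at higher (upward triangles) and lower positions (downward triangles), against distance from the lost interval. Large symbols passed an adjusted p under 0.05. Most large symbols lie within about 60 kb of the interval, upward triangles before it and downward triangles after it, and 4 called rises stand 118 to 257 kb after it.

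With only the lost forward fragment left out, all contacts across it between flanks of 300 kb summed to 13115 and 15641 CPM in WT. In XiteC-del they summed to 18059 and 17342 CPM. The lost reverse fragment was counted in the flank before. In XiteC-inv the sums were 12646 and 13431 CPM. Both XiteC-del libraries lay above the other 4. The log2 ratio over WT was 0.30, and the two-sided exact permutation test gave p = 0.33, the smallest that 2 libraries against 2 allow. Without both lost fragments the sums were 12608 and 14981 CPM in WT and 18035 and 17305 CPM in XiteC-del. XiteC-inv then gave 11659 and 12464 CPM, and the log2 ratio of XiteC-del over WT was 0.36. Distances in XiteC-del were also shortened, so that fragments brought closer are set against the count usual at their new distance. The shortening was by the 3051 bp of the lost forward fragment, not by the full 5768 bp of the lost interval. With it, and with only that fragment left out, the log2 ratio was 0.26. Contacts within the flank before gave 41357 and 52080 CPM in WT and 41363 and 38971 CPM in XiteC-del. Contacts within the flank after gave 35858 and 48041 CPM against 40236 and 37582 CPM. In CPM the groups overlapped in both flanks, and WT replicate 2 was the highest in both. Relative to the count usual at each distance, shortened as above, the flank before gave 1.246 and 1.242 in WT. XiteC-del gave 1.181 and 1.166 there, without overlap, a log2 ratio of -0.08. As a share of X counts up to 600 kb apart, the groups did not overlap there either, with a log2 ratio of -0.13. Both measures counted the lost reverse fragment in the flank before. In the flank after, the groups overlapped in both measures.

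As a measure of the TAD boundary, counts across each border between 30 kb bins were divided by the counts within the 240 kb on each of its sides. At the border at 100650000, the far end of the lost bin, this ratio was 0.118 and 0.112 in WT and 0.176 and 0.182 in XiteC-del. It was 0.165 and 0.171 in XiteC-inv and 0.0948 to 0.124 in the 4 XiteE libraries. WT and XiteC-del did not overlap. In WT this border had the 9th lowest mean ratio of the 129 tested, and in XiteC-del the 25th. The log2 difference was 0.64 (SE 0.14, limma adjusted p = 0.000979), and it was the only border of 129 that passed, or 0.775%. Leaving out XiteC-del replicate 1, XiteC-del replicate 2 or WT replicate 2 kept it at 0.66, 0.61 and 0.60, with limma adjusted p of 0.0804, 0.198 and 0.111.

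With the library code as a covariate, 2 borders passed, or 1.55%. The border at 100650000 had a log2 difference of 0.52 (limma adjusted p = 1.34e-07). The next one, at 100680000, had 0.30 (limma adjusted p = 0.0222), with ratios of 0.114 and 0.110 in WT and 0.143 and 0.151 in XiteC-del. XiteC-inv was higher still at 100680000, with 0.170 and 0.161. At the near end of the lost bin, 100620000, the ratios were 0.199 and 0.185 in WT and 0.214 and 0.218 in XiteC-del. The log2 difference there was 0.17 without the library code and did not pass. Without both lost fragments, again without the code, it was 0.32 and did not pass, beside 0.64 at 100650000, which passed. The called difference thus stood at the end of the lost bin that lies after the interval, but the near end's value depended on the lost fragments. The other 3 of the 5 borders with the smallest p lay 527 to 1603 kb away, and their log2 differences of 0.29 to 0.33 became -0.01 to 0.03 with the library code.

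**Figure D5:**
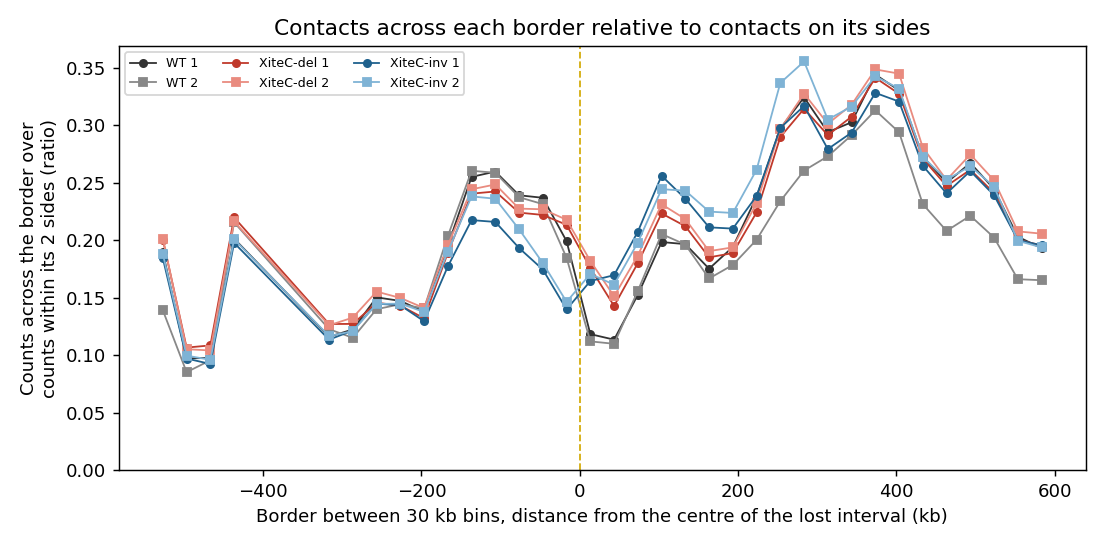
Counts across each border between 30 kb bins divided by the counts within its 2 sides, against the border's distance from the centre of the lost interval, one line per library. Just after the interval the 2 WT libraries form a low point near 0.11, where XiteC-del lies between 0.143 and 0.182 and XiteC-inv between 0.161 and 0.171.

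XiteC-inv, which kept both fragments, was compared directly with XiteC-del, and all 4 of these libraries carried B100. The lost bin gave 4089 and 4369 CPM with the 10 bins before it in XiteC-inv, a little below the 5211 and 4988 CPM of XiteC-del. With the 10 bins after it, XiteC-inv gave 5264 and 5601 CPM, about 2 times the XiteC-del values of 2617 and 2621 CPM. In the direct comparison no bin pair passed in edgeR's test without the covariate (0.0%, with 98 at an unadjusted p under 0.05), and 27 passed with the spread estimated with the library code, or 0.229%. Of these, 19 were lower in XiteC-del, 18 of them pairs of the lost bin with bins up to 600 kb after it. Another 8 were higher, 6 of them pairs of bins before the lost bin with the bin directly after it. The pair of the lost bin with chrX:100860001-100890000, 240 kb after it, gave 123 and 109 CPM in XiteC-del, 419 and 422 CPM in XiteC-inv and 168 and 191 CPM in WT. Its log2 fold change over XiteC-inv was -1.86 (edgeR adjusted p = 2.34e-05).

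Contacts before to after also differed between the 2 edits. The 100 pairs summed to 8552 and 9149 CPM in XiteC-inv, within the WT range, against 12916 and 12537 CPM in XiteC-del. Both XiteC-del libraries lay above both XiteC-inv libraries in 69 of the 100 pairs, against 19.7% of all bin pairs. For the bin directly before the lost bin the edits lay closer. With the 20 bins up to 600 kb after, it gave 4601 and 4419 CPM in XiteC-del, 3953 and 4303 CPM in XiteC-inv and 2362 and 2817 CPM in WT. The bin directly after the lost bin, with the 16 tested bins before the lost bin, gave 4593 and 4387 CPM in XiteC-del, 2153 and 2415 CPM in XiteC-inv and 2590 and 3573 CPM in WT.

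Far from the interval the 2 WT libraries stood apart from each other. Over the 5959 pairs of X bins with neither bin within 600 kb of the lost bin, the median log2 fold change was 0.08, and -0.02 with the library code. Pairs within chromosome 5 gave 10027 and 13016 CPM in WT and 10215 and 10120 CPM in XiteC-del, which lay within the WT range. Pairs of X with chromosome 5 gave 17034 and 2816 CPM in WT and 12293 and 14949 CPM in XiteC-del. The WT libraries thus stood farther from each other than from XiteC-del in these controls, with WT replicate 2 low between chromosomes and high at short range.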

How the data were processed

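The 5C tables are whole-number counts per pair of forward and reverse primers as the authors deposited them, with primer positions in deposited BED files. Reads were aligned with Bowtie2 to mm9, per the submitters' processing notes. The treatment of duplicates and the Bowtie2 version are not given in the sources used here. Counts were summed over 30 kb bins (mean of at least 10 counts tested), primer pairs were tested at a mean of at least 20, and side sums at 200. Tests were edgeR 4.0.16 (quasi-likelihood, library totals as size, all 10 libraries with genotype as the factor) with Benjamini-Hochberg adjustment, limma 3.58.1 on log2 border ratios (pseudocount 1), and exact permutation tests. DESeq2 1.42.0 was an alternative. The bin-pair and border steps were tested on simulated data with no library-code effect. The simulated bin pairs had less spread than the real ones, and side sums and primer pairs were not simulated. Library totals were 16267499 to 23928188. The members, lists and naming rules were chosen with earlier results of these data known. Bin pairs and primer pairs were named by smallest p among those with both XiteC-del libraries beyond both WT libraries, a mean of at least 50 counts and no fragment of the lost bin, 3 per direction where fewer were called, and borders as the 5 with the smallest p and the ends of the lost bin. Same-numbered WT and XiteC-del libraries deviated from their group means with a correlation of -0.185, so no pairing by number was seen. The 2 WT libraries differ in library code and both XiteC-del libraries carry B100, so this correlation could hardly show a pairing. RNA and RAP tables were not used. Fragment sequences are not printed.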

Additional observations from a re-analysis of the deposited data

How the results depend on the processing

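Without the covariate no 30 kb bin pair passed, but 11 did with B100 libraries only, 13 with the library code, 5 with distance scaling, 15 with both of these, 4 with 20 kb bins, and 8 with the library code and both lost fragments left out. The replicate block also gave 0 for bin pairs, and its numbers are not known to pair the samples. Against XiteC-inv 0 became 27 with the library code. Primer pairs went from 61 to 26 with the 4 libraries alone and to 261 in DESeq2, which left 34757 adjusted p-values empty, and ranged from 46 to 82 with 1 library left out. With the replicate block, and likewise with the numbers crossed, 72 primer pairs passed, beside 0 bin pairs and 1 border. Borders went from 1 to 8 with B100 libraries only, 2 with the library code and 2 with the 4 libraries alone, and ranged from 0 to 2 with 1 library left out. The border at 102210000 went from 0.33 to -0.01 with the library code. Side sums went from 0 to 32 with the library code and 25 with B100 libraries only, and ranged from 0 to 2 with 1 library left out. With only the lost forward fragment left out, the log2 ratio of contacts across it was 0.46 with flanks of 150 kb. It ranged from 0.18 to 0.43 with 1 library left out, beside a spread between replicates of 0.13. Without both lost fragments it was 0.36. The library code also moved the residual spread, and why was not tested: the biological coefficient of variation of bin pairs was 62.1% without it and 47.9% with it. It was 121% for single primer pairs and 16% for side sums, so single pairs show only large changes at this depth. Alternatives with the library code beside another setting, both lost fragments left out, crossed numbers and all side sums were chosen after seeing the data. Named bin pairs and primer pairs had to have both XiteC-del libraries beyond both WT libraries, so leaving out 1 library could hardly reverse them. Of the 78 values of the 6 named borders under other settings, 1 changed direction. Of the 108 values of the 6 named bin pairs under other settings 9 newly passed and none changed direction, and of the 72 values of the 6 named primer pairs 11 newly passed and none changed direction.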
